A study of Rattus norvegicus with 14 samples.

Results

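The probes described here are those to which the annotation of a rat array, run on liver, gives more than 1 gene entry. They were chosen by 2 conditions: the array's annotation lists at least 2 gene entries for the probe, and its mean log2 value over all 14 arrays is at least 5. Of 323 such shared probes in a table of 29215 probes, 122 met the level and 201 did not. A probe is here a transcript cluster, the unit whose value the authors deposited, and each is named by all of its symbols. Liver RNA came from female lean Zucker rats about 15 weeks old, all of genotype fa/+, which means that controls too carry 1 copy of the fa allele of the leptin receptor gene. The extract group (7 rats) ate a standard diet with 0.05% by weight of a rosemary extract, 40% of it carnosic acid, a phenolic diterpene of rosemary. The control group (7 rats) ate the standard diet alone, and both groups were fed for 64 days. Each rat has its own array, so the 7 values in a group are separate animals.

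Many enzymes that handle foreign compounds are encoded by tandemly duplicated genes whose coding sequences are so alike that a short array probe can match several of them. In liver these families work in sequence: carboxylesterases and alcohol dehydrogenases hydrolyse or oxidise a compound, and glutathione transferases, UDP-glucuronosyltransferases, sulfotransferases and medium-chain acyl-CoA synthetases attach, or activate it for attachment of, a water-soluble group. A shared probe gives 1 value for all the genes it lists, and how much of it comes from each gene was not measured. The base sequences of the array's probes were not used here.

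The 122 probes list 215 distinct symbols in 97 different sets. Most (106) list 2 gene entries, 14 list 3 or 4, and 2 list more, up to 13 protocadherin genes on 1 probe. In 66 of them the genes have alike names, in 51 they have unlike names, and 5 list 1 symbol under 2 gene identifiers. For each of these 5, only 1 of the identifiers was found in RefSeq, so they may point to 1 gene. The unlike pairs are mostly neighbours: 43 of the 51 lie next to each other in the RefSeq annotation of the rat assembly GRCr8. Their mean levels ran from 5.02 to 13.35 with a median of 8.05, against a median of 5.10 over all probes. In 121 of the 122 both group means were at least 5, so that the level condition did not rest on 1 group. The exception, Slc16a5/Armc7, averaged 5.07 ± 0.18 in extract rats and 4.97 ± 0.13 in control rats (SD, n = 7 each) and did not pass the test. At the edge of the level condition, Slc16a5/Armc7, Ttc4/Mroh7 and Jmjd7/Pla2g4b were just inside with means of 5.02, 5.12 and 5.13, while the keratin set Krt31/Krt33b/Krt33a, the pair Prp25l1/Prp15 and the olfactory receptor pair Or6al2/Or6al1 were just outside with 4.88, 4.87 and 4.84. Among the probes below the level, 80 matched the symbol patterns used for chemosensory receptors. Those patterns left out olfactory receptors with Or symbols, such as Or6al2/Or6al1, so the full number is higher. No shared probe at any level carries a cytochrome P450 symbol, so that family is not covered.

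Array medians lay between 5.02 and 5.15 and pairs of arrays correlated between 0.983 and 0.996 over all probes, and the number of arrays limits the precision (median SE of a log2 fold 0.09). Control rat 1 had the lowest median correlation with the other arrays (0.9883, with extract rat 4 at 0.9890). It was also the lowest within its own group (0.9877). The hepatocyte markers Alb, Apoa1, Ttr, Tf, Serpina1 and Cps1 had a mean level of 13.16 to 13.22 in extract rats and 13.14 to 13.30 in control rats, and 0 of 6 passed the test. All 8 Kupffer cell and macrophage markers had negative folds, and 1 of them, Marco, passed the test (log2 fold -0.73, adjusted p = 0.0152, limma). Their mean level was 8.33 to 8.67 in extract rats and 8.73 to 8.97 in control rats, without overlap. In whole liver, fewer cells of a type and less RNA per cell cannot be told apart.

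More shared probes were higher than lower with the extract, and the higher ones were led by enzymes of foreign-compound metabolism. Each probe was compared with limma's moderated test, and p-values were adjusted by Benjamini-Hochberg over all 29215 probes at a threshold of 0.05. By this test 12 of the 122 were higher (9.84%), 3 were lower (2.46%) and 107 did not pass. Over all rows of the table, 0.907% of probes were called higher and 0.442% lower. Among the 9509 probes with a single symbol and a mean of at least 5, chosen by the same lowest level, 2.04% were called higher and 0.946% lower. At an unadjusted p under 0.05 there were 28 shared probes (23.0%), against 12.0% of the whole table, to which no level condition was applied. The median log2 fold was 0.03 over the 122 and -0.002 over all probes, so that the bulk of the shared probes lay near 0. All folds ran from -0.69 to 0.96, and 11 were at least 0.5 in size. In 12 shared probes the lowest extract rat exceeded the highest control rat, and in 3 the order was the opposite. These are not the same 12 and 3 probes that passed. The upward ones leave out both Gsta5/Gsta2 probes and include Ugt2b15/Ugt2b37 and Ndufa10/Ndufa10l1, which did not pass. The downward ones are all H2B histone probes. Over all probes, at any level, 0.691% had no overlap upward and 0.318% none downward. Of the 66 probes of alike-named genes 9 were higher and 3 lower. Of the 51 probes of unlike-named genes 2 were higher and 0 lower, with 49 not called, and of the 5 with 1 symbol under 2 identifiers 1 was higher. Whether these shares differ was not tested.

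**Figure D1:**
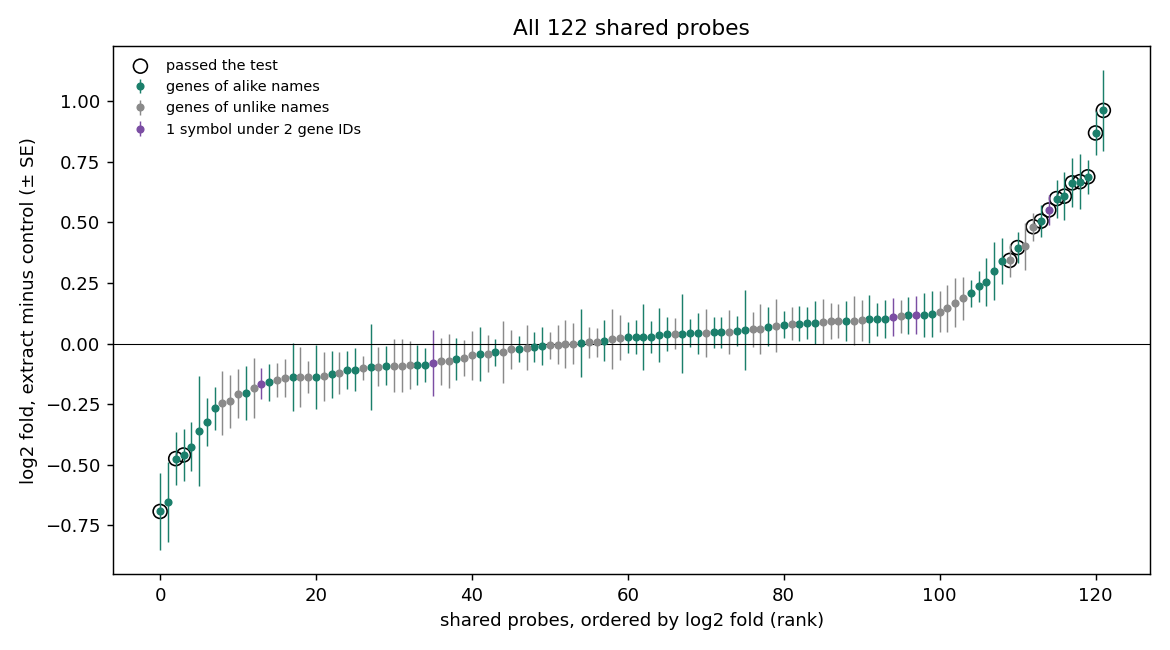
The log2 fold (extract minus control) of each of the 122 shared probes, in order of fold, with bars for limma's SE. Colours give the kind of gene set, and rings mark the 15 probes that passed the test: 12 at the upper end and 3 at the lower end.

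Both carboxylesterase probes rose. The probe of Ces1dl1/Ces1d (10931271) read 10.69, 10.80 and 10.89 (lowest, median and highest of 7) in extract rats, against 9.70, 9.83 and 10.33 in control rats. Ces1d is an esterase known in mouse for hydrolysing stored triacylglycerol as well as drug esters. On this probe the lowest extract rat stood above the highest control rat. The group means were 10.80 ± 0.08 with the extract and 9.93 ± 0.23 without (SD, n = 7 each), a 1.83-fold difference (log2 fold 0.87 ± 0.09 SE, adjusted p = 5.28e-05, limma). The probe of Ces1f/Cesl1/Ces1c (10930675) read 8.91, 9.04 and 9.28 in extract rats and 8.25, 8.48 and 8.72 in control rats, again without overlap. It was 1.51-fold higher with the extract (log2 fold 0.60 ± 0.08 SE, adjusted p = 0.000481, limma). Among probes that carry the symbol of 1 carboxylesterase gene only, with a mean of at least 5, 9 of 10 were higher and 0 lower, with a median log2 fold of 0.70. The higher ones include those of Ces1d, Ces1f and Ces1c, genes that the shared probes also list.

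Ces1d and Ces1dl1 lie apart on the same chromosome. The stretches before their start sites are shown because they are close copies and 1 probe lists both genes. The 250 bases upstream of each start (RefSeq, GRCr8, plus strand, 5′ to 3′) are chr19:30046244-30046493 for Ces1d and chr19:38444174-38444423 for Ces1dl1. Capitals mark the bases that are not paired with the same base of the other gene, including the overhanging ends.
Ces1d: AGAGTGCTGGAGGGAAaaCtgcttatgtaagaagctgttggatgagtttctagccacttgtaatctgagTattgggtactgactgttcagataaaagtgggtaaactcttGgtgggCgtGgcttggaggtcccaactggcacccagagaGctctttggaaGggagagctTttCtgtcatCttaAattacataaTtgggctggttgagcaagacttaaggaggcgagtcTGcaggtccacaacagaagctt
Ces1dl1: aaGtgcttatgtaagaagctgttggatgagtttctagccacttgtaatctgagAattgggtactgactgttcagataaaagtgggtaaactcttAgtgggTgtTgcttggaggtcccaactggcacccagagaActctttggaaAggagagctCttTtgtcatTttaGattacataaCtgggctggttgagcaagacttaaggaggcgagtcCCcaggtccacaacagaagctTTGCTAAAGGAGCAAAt
The alignment paired 220 identical bases over 266 columns (82.7%). The capitals inside the shared stretch are scattered single bases and 1 pair, and the longest runs of capitals are the overhangs. For comparison, the windows of Ces1f and Ces1c were identical over 51.6% of columns, above the median of 45.9% over the 137 alike-named pairs that could be aligned.

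The alcohol dehydrogenase probe Adh5/Adh4 (10819413) rose as well. Adh5 oxidises the glutathione adduct of formaldehyde, and Adh4 oxidises ethanol and retinol; the genes are neighbours. The probe read 9.54, 9.70 and 9.85 in extract rats and 9.17, 9.29 and 9.46 in control rats. No extract rat reached down to a control rat, and the difference was 1.32-fold (log2 fold 0.40 ± 0.07 SE, adjusted p = 0.00383, limma).

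Conjugating enzymes made up 6 of the 12 probes that rose, on 4 sets of genes. By family, 2 of 2 glutathione transferase probes, 1 of 2 UDP-glucuronosyltransferase probes, 2 of 3 sulfotransferase probes and 1 of 2 probes of acyl-CoA synthetases and thioesterases rose. The arylamine acetyltransferases Nat2/Nat1 (10791279) did not pass, at 7.64 ± 0.16 in extract rats and 7.75 ± 0.13 in control rats (SD, n = 7 each), with a log2 fold of -0.11 ± 0.08 (SE, adjusted p = 0.661, limma). The 2 probes of Gsta5/Gsta2, alpha-class glutathione transferases (in rat, Gsta5 is known for detoxifying aflatoxin epoxide), gave the highest and the fourth highest fold of all 122. Probe 10918822 read 10.99, 11.24 and 11.49 in extract rats and 9.63, 10.29 and 11.08 in control rats. Probe 10911802 read 11.78, 11.92 and 11.97 in extract rats and 10.85, 11.28 and 11.81 in control rats. The groups overlapped on both probes through 1 animal: control rat 1 read 11.08 and 11.81, above the lowest extract rat, while 6 of 7 extract rats lay above all controls. The controls also spread more widely, with SDs of 0.47 and 0.31 against 0.17 and 0.07 in the extract group. Probe 10918822 was 1.95-fold higher (log2 fold 0.96 ± 0.17 SE, adjusted p = 0.0059) and probe 10911802 1.59-fold higher (log2 fold 0.67 ± 0.11 SE, adjusted p = 0.00462, both limma). A test per probe that lets the groups differ in variance ended both calls (adjusted p = 0.0895 for each). Among single-symbol glutathione transferase probes 7 of 17 were higher and 0 lower.

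A single probe (10925158) lists 8 genes of the Ugt1a locus: Ugt1a1, Ugt1a2, Ugt1a3, Ugt1a5, Ugt1a6, Ugt1a7c, Ugt1a8 and Ugt1a9. These genes are known to join a first exon of their own to a set of exons that all of them share, so that 1 cluster can read them all, and their enzymes attach glucuronic acid to bilirubin, phenols and steroids. It read 10.75, 10.94 and 11.02 in extract rats and 10.28, 10.41 and 10.60 in control rats, without overlap. The rise was 1.42-fold (log2 fold 0.505 ± 0.07 SE, adjusted p = 0.000488, limma). The windows upstream of these genes, Ugt1a5 not included, were less alike than those of Ces1d and Ces1dl1: between Ugt1a genes they were identical over 41.1% to 51.0% of aligned columns. The probe of Ugt2b15/Ugt2b37 (10771957), glucuronosyltransferases of steroids, had one of the highest levels of the 122, at 12.76 ± 0.07 in extract rats and 12.53 ± 0.13 in control rats (SD, n = 7 each). Its groups did not overlap, yet its log2 fold of 0.24 ± 0.06 (SE) did not pass (adjusted p = 0.0923, limma). After the quantile normalization was repeated it did (adjusted p = 0.0454). Single-symbol probes of the family were higher in 3 of 5 cases and lower in 0, and the higher ones include Ugt2b37.

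The 2 probes of Sult1c2a/Sult1c2, cytosolic sulfotransferases of phenols, rose by like amounts. Probe 10921239 read 9.90, 10.31 and 10.56 in extract rats and 9.29, 9.70 and 9.84 in control rats. Probe 10926125 read 10.37, 10.71 and 10.99 in extract rats and 9.74, 10.16 and 10.29 in control rats. Neither probe had an overlap between groups. The log2 folds were 0.66 ± 0.10 and 0.61 ± 0.10 (SE; adjusted p = 0.00198 and 0.0036, limma). Another sulfotransferase pair, Sult2a2/Sult2a6, which act on steroids and bile acids, stood at 12.48 ± 0.14 in extract rats and 12.57 ± 0.16 in control rats (SD, n = 7 each). Its log2 fold was -0.09 (adjusted p = 0.732, limma). Of the family's 8 single-symbol probes 1 was higher, that of Sult1c2 itself, and their median log2 fold was -0.05.

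The mitochondrial enzymes Acsm1/Acsm2, which activate medium-chain fatty acids and aromatic acids such as benzoate ahead of glycine conjugation, shared the probe with the smallest p (10710258). It read 10.58, 10.70 and 10.78 in extract rats and 9.75, 10.05 and 10.18 in control rats. The gap between the groups was wider than the range within the extract group. The rise was 1.61-fold (log2 fold 0.69 ± 0.07 SE, adjusted p = 4.06e-05, limma). The thioesterase pair Acot4/Acot3, which split long-chain and dicarboxylic acyl-CoAs in peroxisomes, had a log2 fold of 0.12 ± 0.10 (SE, adjusted p = 0.684, limma). Single-symbol probes of the acyl-CoA thioesterases and synthetases were higher in 1 of 13 cases.

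The other 3 probes that rose list genes outside these families. The probe of Selenbp1 (10824892), listed under 2 gene identifiers and encoding a selenium-binding protein that oxidises methanethiol, read 10.67, 10.86 and 11.04 in extract rats and 10.22, 10.29 and 10.40 in control rats (log2 fold 0.55 ± 0.06 SE, adjusted p = 0.000102, limma). Probe 10761350 lists the neighbours Kctd7, a potassium channel tetramerisation domain protein, and Tpst1, a Golgi enzyme that sulfates tyrosines of secreted proteins. It read 9.21, 9.30 and 9.39 in extract rats and 8.63, 8.85 and 8.92 in control rats (log2 fold 0.48 ± 0.06 SE, adjusted p = 0.000223, limma). Setsip, related to the histone chaperone SET, and Pkn3, a protein kinase, lie on different chromosomes and share probe 10931885. It read 7.01, 7.05 and 7.31 in extract rats and 6.58, 6.81 and 6.92 in control rats (log2 fold 0.34 ± 0.07 SE, adjusted p = 0.0157, limma). In these 3 probes every extract rat lay above every control rat. A further Setsip/Pkn3 probe (10808896) had a log2 fold of 0.40 ± 0.10 (SE) and did not pass (adjusted p = 0.0534, limma).

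**Figure D2:**
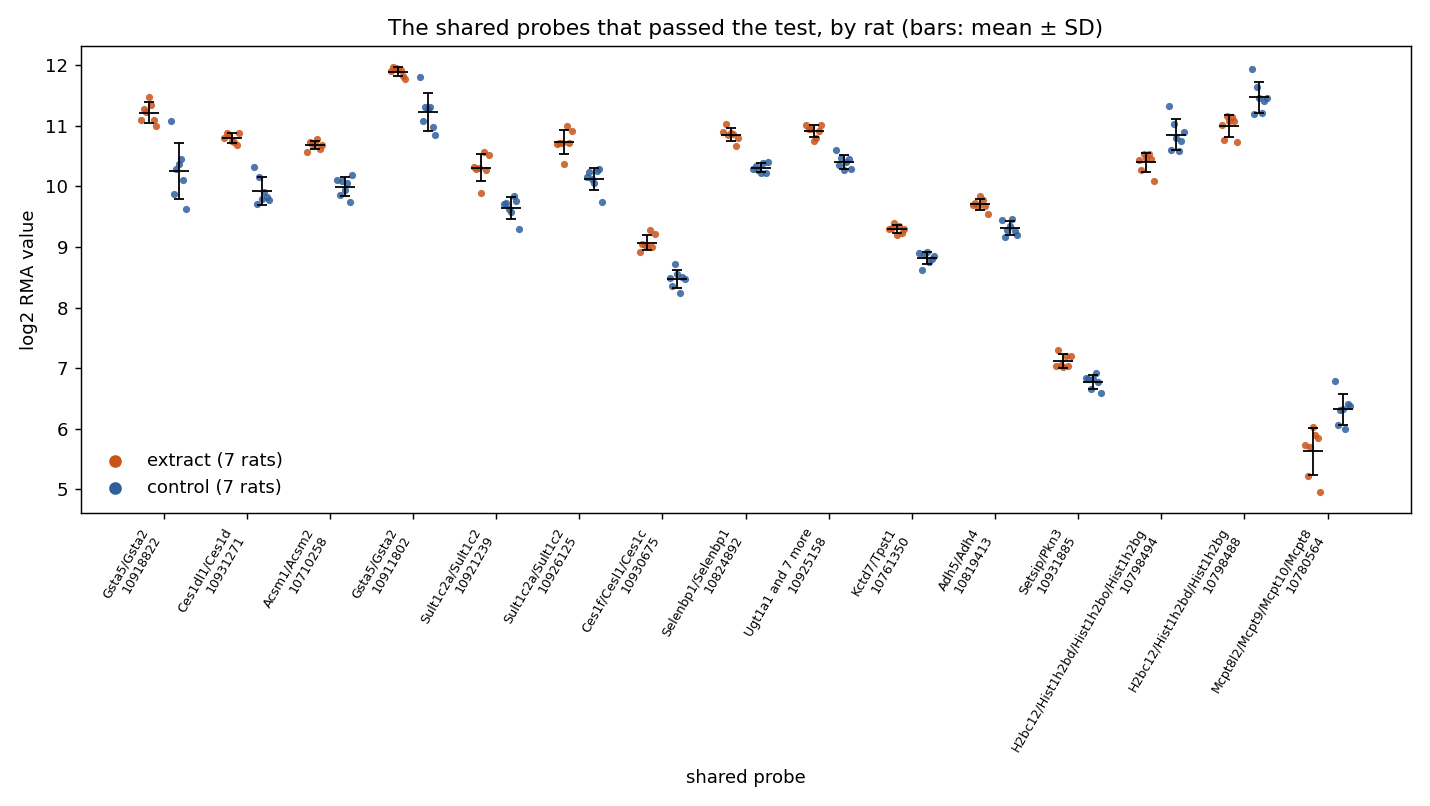
Log2 RMA values of each of the 7 extract rats (left, orange) and 7 control rats (right, blue) on the 15 shared probes that passed the test, with mean and SD. The groups separate fully on 10 of the 12 higher probes, while control rat 1 reaches into the extract range on both Gsta5/Gsta2 probes.

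Fewer probes fell, and their calls were lost in most of the fits that left out 1 rat. Replication-dependent H2B histone genes, which package newly made DNA, are listed by 3 probes that share most of their targets. Probe 10798488 (H2bc12/Hist1h2bd/Hist1h2bg) read 10.74, 11.08 and 11.16 in extract rats and 11.20, 11.46 and 11.94 in control rats. Probe 10798494, which adds Hist1h2bo, read 10.09, 10.45 and 10.54 in extract rats and 10.58, 10.80 and 11.33 in control rats. All extract rats lay below all control rats on both. The log2 folds were -0.475 ± 0.11 and -0.46 ± 0.11 (SE; adjusted p = 0.0421 and 0.049, limma). The remaining probe, 10798497, had a log2 fold of -0.425 with no overlap either and did not pass (adjusted p = 0.0532). Each of the 2 calls held in only 3 of 14 fits that left out 1 rat (without control rats 1, 2 or 5), with adjusted p between 0.0327 and 0.102 for 10798488 and between 0.0338 and 0.113 for 10798494. Of 30 single-symbol histone probes 2 were lower and 0 higher, with a median log2 fold of -0.12.

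Granule serine proteases of the Mcpt8 group, which in mouse mark basophils, share 2 probes. Probe 10780564 (Mcpt8l2/Mcpt9/Mcpt10/Mcpt8) read 4.95, 5.74 and 6.03 in extract rats and 5.99, 6.32 and 6.78 in control rats. The groups overlapped only through extract rat 4 at 6.03, above control rat 5 at 5.99. The probe was 1.62-fold lower with the extract (log2 fold -0.69 ± 0.16 SE, adjusted p = 0.0415, limma). This call held in 5 of 14 fits that left out 1 rat (without control rats 2 or 5 or extract rats 4, 5 or 6; adjusted p between 0.0272 and 0.0962) and was lost when the quantile normalization was repeated (adjusted p = 0.0667). The call of the histone probe 10798494 was lost after median centring (adjusted p = 0.0531), and in the unequal-variance test 0 of the 3 falls was called. Probe 10784004, which omits Mcpt9, had a log2 fold of -0.65 ± 0.17 (SE, adjusted p = 0.0665, limma). A list of 7 mast cell and basophil markers (Ms4a2, Cpa3, Fcer1a, Kit, Tpsab1, Cma1, Hdc) averaged 3.84 to 4.06 in extract rats and 4.00 to 4.16 in control rats; 5 of 7 folds were negative, 0 passed, and 6 of 7 lay below the median probe. Extract rats 2 and 7 were the lowest of their group both on the Mcpt8 probe (5.21 and 4.95) and on the histone probe 10798488 (10.77 and 10.74), and control rat 1 was the highest of its group on both (6.78 and 11.94). Of the endothelial markers 3 of 3 measured (5 were listed) and of the stellate markers 3 of 5 had negative folds, and 0 of either list passed. Negative folds were 0 of 3 for bile duct, 0 of 3 for muscle and 2 of 4 for T, B and NK cell markers. They were 2 of 4 for pancreas, 2 of 2 for red cell and 5 of 6 for hepatocyte markers, and 0 of these lists held a call. The endothelial list averaged 8.95 to 9.58 in extract rats and 9.37 to 9.55 in control rats, and the stellate list 6.60 to 7.09 in extract rats and 6.85 to 7.56 in control rats. The part of the Kupffer cell, mast cell, endothelial and stellate markers in these falls was not tested.

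The upstream windows of Mcpt8 and Mcpt9 are shown because they are the closest copies among the probes that passed: 233 identical bases over 258 aligned columns (90.3%). They are chr15:33769399-33769648 for Mcpt8 and chr15:33827180-33827429 for Mcpt9 (RefSeq, GRCr8, plus strand, 5′ to 3′), with capitals as before.
Mcpt8: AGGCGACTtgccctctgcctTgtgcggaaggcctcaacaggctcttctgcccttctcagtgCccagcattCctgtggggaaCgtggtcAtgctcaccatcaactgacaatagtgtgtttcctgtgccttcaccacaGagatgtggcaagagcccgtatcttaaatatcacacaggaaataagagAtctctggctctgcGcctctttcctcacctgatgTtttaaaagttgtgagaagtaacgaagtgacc
Mcpt9: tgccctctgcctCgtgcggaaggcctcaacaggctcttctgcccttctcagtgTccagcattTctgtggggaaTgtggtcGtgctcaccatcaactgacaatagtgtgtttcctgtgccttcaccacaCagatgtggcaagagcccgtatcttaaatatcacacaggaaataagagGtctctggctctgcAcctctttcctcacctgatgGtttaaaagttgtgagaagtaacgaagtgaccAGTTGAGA
Of 137 alike-named pairs with both windows, 4 reached 90% identity, and the range was 39.8% to 99.2%. Mcpt8l2 matched Mcpt9 over 89.2% of columns and Mcpt8 over 83.2%. Among other genes of probes that passed, the identity was 48.0% for Sult1c2 and Sult1c2a, 46.0% for Gsta2 and Gsta5, 45.8% for Acsm1 and Acsm2 and 40.3% for Adh5 and Adh4. The letters TGACNNNGC, the core of the antioxidant response element bound by NRF2, were searched on both strands. They occurred in 0 of the 29 windows available for the 35 gene identifiers of the probes that passed, and in 2793 of all 27457 windows (10.17%). The 29 hold genes of probes that rose and also Mcpt8 and H2B genes, whose probes fell. The search covered only the 250 bases before each start and says nothing about sites elsewhere.

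Where several shared probes list the same genes they share targets and are not independent, but their folds can be set side by side. There were 11 such sets with 36 probes in all, and in each of the 11 every probe had a fold of the same sign. The largest set was that of Hmgb1/Hmgb1-ps33, a DNA-bending chromatin protein and a processed copy: its 13 probes had log2 folds of 0.03 to 0.12 and 0 passed. Hmgb2/Hmgb2l1 had 4 probes between 0.00 and 0.06. The 2 probes of Fcgr2a/Fcgr2al1, a low-affinity receptor for IgG on macrophages, had log2 folds of -0.32 ± 0.10 and -0.27 ± 0.09 (SE) and did not pass (adjusted p = 0.143 and 0.197, limma); probe 10769788 averaged 7.68 ± 0.20 in extract rats and 8.01 ± 0.18 in control rats (SD, n = 7 each). Of the 3 Septin5/Gp1bb probes 2 hold the same values in every rat.

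**Figure D3:**
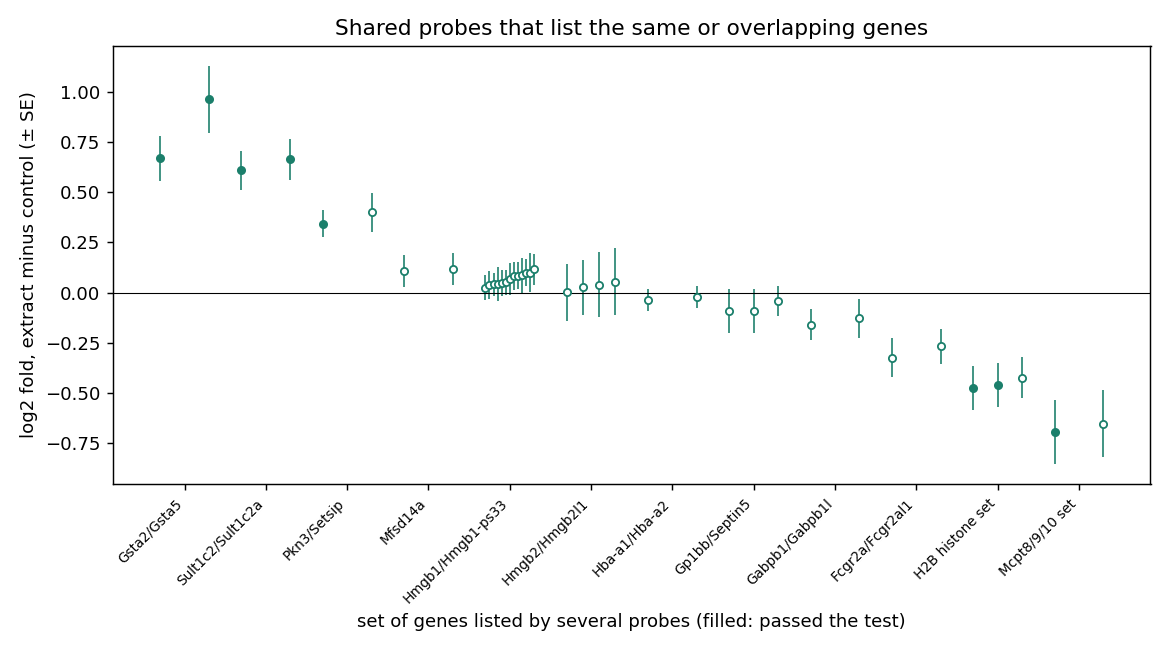
Log2 folds (extract minus control, with SE) of shared probes that list the same or overlapping genes, grouped by gene set; filled points passed the test. Within each set the folds lie on the same side of 0, from both Gsta2/Gsta5 probes at the top to both Mcpt8 probes at the bottom.

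The 107 probes that did not pass hold several well-known liver and blood transcripts. The highest levels of all 122 were those of the alpha globins Hba-a2/Hba-a1, at 13.33 ± 0.06 in extract rats and 13.37 ± 0.10 in control rats (SD, n = 7 each) on probe 10741756. That probe's log2 fold was -0.04 (0.021 after the quantile normalization was repeated), and the beta globin pair Hbb-bs/Hbb-b1 had -0.14 (adjusted p = 0.776, limma). Complement genes of the MHC region differed by less than the control SD: C4b/C4a averaged 11.57 ± 0.26 in extract rats and 11.71 ± 0.29 in control rats, and Cfb/C2 9.19 ± 0.08 in extract rats and 9.32 ± 0.27 in control rats (SD, n = 7 each). All 7 probes of MHC and immunoglobulin-like genes failed the test, with folds from -0.36 to 0.12. The probe of Leprot/Lepr, which covers the leptin receptor gene that fa alters, read 7.19, 7.27 and 7.32 in extract rats and 7.17, 7.24 and 7.53 in control rats, a log2 fold of -0.02 ± 0.06 (SE). Srebf1/Pemt, a lipogenic transcription factor and a phosphatidylcholine-making enzyme, had -0.15 ± 0.07 (SE, adjusted p = 0.414, limma).

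Slco1a5/Slco1a1, organic anion transporters that take up bile acids and drugs, averaged 5.95 ± 0.16 in extract rats and 5.61 ± 0.20 in control rats (SD, n = 7 each). Its log2 fold of 0.34 ± 0.10 (SE) missed the threshold (adjusted p = 0.105, limma) and passed it without control rat 1 (adjusted p = 0.0271). The carnitine and cation transporters Slc22a21/Slc22a4/Slc22a5 had 0.30 ± 0.12 (SE, adjusted p = 0.322), and the transporter set Abcg3/Abcg3l4/Abcg3l2 had -0.06 ± 0.09 (SE, adjusted p = 0.859, limma). Of 5 shared probes of ABC and solute carriers 0 passed, with log2 folds from -0.06 to 0.34, and of 225 single-symbol probes of that family 18 were higher and 2 lower. Ndufa10/Ndufa10l1, a subunit of respiratory complex I and its copy, averaged 11.34 ± 0.10 in extract rats and 11.14 ± 0.06 in control rats (SD, n = 7 each), without overlap, and did not pass (adjusted p = 0.0964, limma). The families with no call also included the chaperone set Hspa1b/Hspa1l/Hspa1a (-0.10), the myosin light chains Myl6b/Myl6/Myl6l (-0.21), the zinc finger pair Zfp64/Zfp93 (-0.11), the proteasome pair Psma3l/Psma3 (0.04) and Tas1r2/Aldh4a1 (0.00).

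Some of the listed genes also have a probe of their own, which carries 1 symbol only. This was so for 49 of the 122 shared probes; 73 had none, among them those of Gsta5/Gsta2, Acsm1/Acsm2 and Ugt1a. The 39 own probes cover 37 genes, and 6 of them were higher and 0 lower. Of the 39, 32 had the sign of every shared probe they belong with; many of these folds lie near 0, as with Hmgb1-ps33 (0.02), which belongs with 13 shared probes. Ces1d alone averaged 10.79 in extract rats and 9.81 in control rats, a log2 fold of 0.99 ± 0.10 (SE) beside 0.87 on its shared probe. Ces1f and Ces1c, which share a probe at 0.60, differed when read singly: Ces1f averaged 11.63 in extract rats and 10.59 in control rats (1.04 ± 0.08 SE, adjusted p = 1.32e-06) and Ces1c 12.57 in extract rats and 12.18 in control rats (0.39 ± 0.07 SE, adjusted p = 0.00905, limma). The shared fold lies between these, and the difference between the probes was not tested. The probe with the symbol Sult1c2 alone had 0.68 ± 0.10 (SE, adjusted p = 0.00162, limma), close to its 2 shared probes. Its values nearly repeated those of shared probe 10921239. It read 9.90, 10.34 and 10.56 in extract rats, against 9.90, 10.31 and 10.56 on 10921239. In control rats it read 9.29, 9.71 and 9.84, against 9.29, 9.70 and 9.84. Its closeness to the shared probes is therefore not a separate reading of Sult1c2.

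For Setsip/Pkn3 the own probes went apart. Setsip alone averaged 7.66 in extract rats and 7.30 in control rats (log2 fold 0.355 ± 0.07 SE, adjusted p = 0.0139, limma), whereas Pkn3 alone, at 4.21 in extract rats and 4.36 in control rats, lay below the median probe and had -0.14 ± 0.08 (SE, adjusted p = 0.517). Ugt2b37 alone passed narrowly with 0.615 ± 0.15 (SE, adjusted p = 0.0467, limma), where the shared Ugt2b15/Ugt2b37 probe had 0.24. On the Ugt2b37 probe the groups overlapped, with 6 of 7 extract rats above all controls. The difference between these probes was not tested. For the probes that fell, the own probes did not pass: H2bc12 had -0.17 and Hist1h2bg -0.245, and Mcpt9, Mcpt10 and Mcpt8, at means of 3.39, 3.70 and 3.54, had -0.235, -0.25 and -0.07. These 3 own probes lay far below the level of the shared Mcpt8 probe, and levels of different probes cannot be set against each other.

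**Figure D4:**
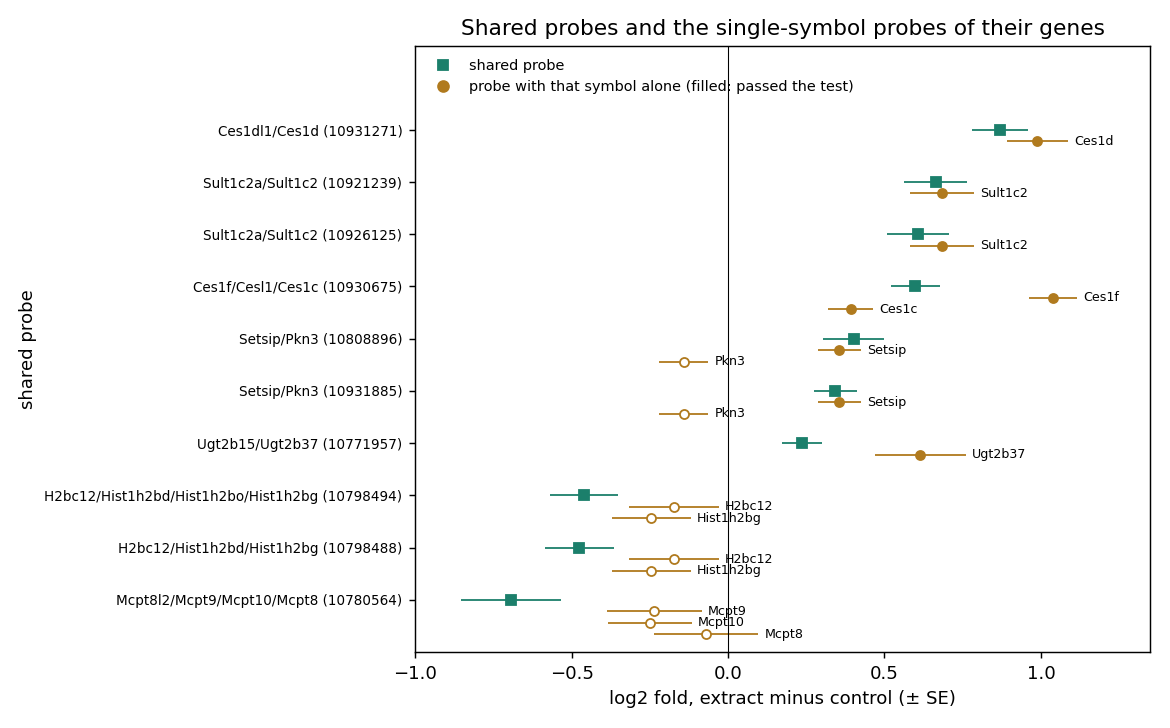
Log2 folds (extract minus control, with SE) of shared probes (squares) and of probes that carry the symbol of only 1 of their genes (circles, filled where the test was passed). Sult1c2 and Setsip lie close to their shared probes, and Ces1d (0.99) lies somewhat above its shared probe (0.87). Ces1f and Ces1c lie on either side of theirs, and the own probes of the Mcpt8 and H2B genes lie nearer 0.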

How the data were processed

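Liver RNA of 14 rats was hybridised to whole-transcript Affymetrix arrays, 1 per rat. The deposited values are log2 expression values; per the submitters' processing notes, the authors used RMA and Affymetrix Expression Console 1.1.2. The sources used here give no genome build. RMA can make folds of dim probes too small, which was not measured here, and detection calls were not applied. The labels give the extract as 0.05% of the diet and the series title gives 0.5%; the sample labels' value is printed.

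GEO's platform annotation names 15633 of 29215 probes: 15310 with 1 symbol and 323 with several entries, 5 of the 122 used being 1 symbol under 2 identifiers. Of 220 distinct gene identifiers 212 were in the RefSeq table of GRCr8, which changed 0 symbols and gave neighbours and upstream sequences. Pairs were aligned globally with Biopython 1.88 (match 2, mismatch -1, gap opening -5, extension -1). Alike names share at least 3 leading characters or a family.

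The whole table was fitted with limma 3.58.1 (lmFit, eBayes, two-sided, no covariate) in R 4.3.3, after a test on simulated data. Errors of means are SDs and of folds limma's SEs. Named probes are all that passed, the smallest p of each family with members but no call, the 3 highest levels, the 3 nearest either side of the level, and probes of their single symbols; other named probes and sets were chosen after their values were seen. The members and lists were chosen with earlier results of these data known. Exact family patterns, name classes, the mast cell and basophil list, the sequence pairs and the motif were set after the annotation or values had been seen. Rat numbers are shared by the groups but did not pair them: deviations of same-numbered rats correlated between -0.36 and 0.25. Alternatives are in the closing section. Tables and figures used Python 3.11.15, pandas 2.3.3 and matplotlib 3.10.9.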

Additional observations from a re-analysis of the deposited data

Results flagged for a closer look

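In 74 groups of 7 values of the named shared probes, 7 values stood apart from the rest of their group by Dixon's test, which chance gives in about 1 of 20 groups. On the Sult1c2a/Sult1c2 probe 10926125, control rat 7 was low at 9.74. Of the Mup4/Obp3 probes below the level, extract rat 6 was high at 4.97 (10877286), 4.98 (10877295) and 3.96 (10877229), and control rat 6 was high at 6.00 (10877295) and 4.42 (10877229). On Prp25l1/Prp15, also below the level, extract rat 6 was high at 4.97.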

How the results depend on the processing

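Every one of the 12 probes that rose was also called in each of the 14 fits that left out 1 rat, in which the number of higher shared probes ran from 12 to 13 and that of lower ones from 0 to 4. Other settings gave 10 to 14 higher. The count of lower probes was 3, and it became 5 when only probes with a mean of at least 5 were fitted, 5 when p-values were adjusted over rows with a symbol, 0 with an unequal-variance test per probe and 0 with the rat number as a replicate block. The replicate block also ended the Setsip/Pkn3 call (adjusted p = 0.0657) and left 11 higher; only 1 of 7 extract rats correlated best with the control of its number. Single-symbol probes of the same families were higher in 46 and lower in 12 cases, against 28 and 2 with the unequal-variance test and 36 and 5 with the replicate block; leaving out a rat gave 35 to 55 higher and 7 to 14 lower. In each fit that left out 1 rat, 5 to 6 probes of single listed genes were higher and 0 were lower. With no level condition there were 323 probes, 12 higher and 7 lower, and at a level of 4 there were 5 lower. Signs turned only in probes near 0 that were never called. After repeated quantile normalization the Hba-a2/Hba-a1 probes had 0.021 and 0.034, and Tas1r2/Aldh4a1 0.03. After median centring Tas1r2/Aldh4a1 had 0.012 and Or6al2/Or6al1 0.002. Leaving out a rat gave -0.208 to 0.043 for Hspa1b/Hspa1l/Hspa1a, -0.032 to 0.094 for Psma3l/Psma3, -0.073 to 0.062 for Or6al2/Or6al1 and -0.03 to 0.052 for Tas1r2/Aldh4a1. The cause was not tested. Probes near background have folds that RMA can make too small.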

Other observations

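Among the shared probes below the level, those of the urinary proteins moved most. In total 11 probes list Mup4, its relatives and Obp3, lipocalins of the alpha-2u-globulin type that carry pheromones in urine and are made in liver mainly by males, and these rats are female. Their mean levels ran from 3.15 to 4.70, all under the median probe. All 11 had negative folds, and 4 passed the test as lower; these 4 were named after their values were seen. Probe 10877286 read 3.76, 3.94 and 4.97 (lowest, median and highest) in extract rats and 4.85, 5.29 and 6.05 in control rats. Of the 7 extract rats 6 lay below all controls, with extract rat 6 the exception. Its log2 fold was -1.24 ± 0.19 (SE, adjusted p = 0.00197, limma), larger in size than that of any of the 122 probes above the level. Probe 10877295 had -1.22 ± 0.19 (SE, adjusted p = 0.00248, limma). Both calls held in all 14 fits that left out 1 rat. The dimmer probes 10877229 and 10877217 had -0.565 and -0.30 (adjusted p = 0.0325 and 0.0381, limma), and their calls held in 4 and 5 of those fits. The 11 probes share targets and are not independent.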
